A study of Mus musculus with 18 samples.

Results

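The genes described here are 10 mouse genes of glutathione metabolism in mature oocytes held at the second meiotic metaphase (MII oocytes). They are the glutathione transferases Gstm1, Gstm2 and Mgst1, the glutathione peroxidases Gpx1, Gpx4 and Gpx8, and the synthesis and recycling enzymes Gclc, Gclm, Gss and Gsr. Each was found by matching its symbol to the Ensembl gene ID in the RNA-seq files, which gave 10 of 55471 gene IDs. Several were selected on the measured values themselves, chosen by being higher in libraries labelled KO than in libraries labelled WT in the same data. Their differences between the groups are therefore given as a description, without p-values.

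The series concerns ISCA2, which helps to build iron-sulfur clusters in mitochondria, and the iron-dependent TET enzymes around implantation. Messenger RNA was compared between 3 MII oocyte libraries labelled Isca2 knockout (KO; genotype Isca2 -/-) and 3 labelled wild type (WT). The labels name no strain, age, construction of the allele or number of oocytes per library, nor whether replicates came from different females. The collection and library protocol given with these samples describes embryos from hormone-primed Isca2+/- females crossed to Isca2+/- males, with amplification of full-length cDNA from blastocysts, not oocytes.

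Glutathione is the most abundant small thiol of most animal cells. Glutamate-cysteine ligase, made of the catalytic subunit Gclc and the modifier subunit Gclm, joins glutamate to cysteine, and glutathione synthetase (Gss) adds glycine. Peroxidases of the Gpx family use glutathione to reduce peroxides, transferases of the Gst and Mgst families couple it to electrophilic compounds, and glutathione reductase (Gsr) returns oxidised glutathione to the reduced form with NADPH. The mature mouse oocyte holds a large store of glutathione, which is used after fertilisation when the protamines of the sperm nucleus are reduced and removed.

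The upstream sequences of the 3 transferases are shown because these genes had separate groups and the widest range over the libraries labelled KO, with replicate 2 highest and replicate 1 lowest. Gpx4 and Gclm had the same order of those libraries over a far narrower range. Each is the 250 bases before a RefSeq transcription start in build GRCm38.p6, 5′ to 3′ on the strand of the gene, with matches to the searched motifs in capitals. The Gstm1 sequence is chr3:108017819-108018068 on the minus strand, the Gstm2 sequence chr3:107986421-107986670 on the minus strand and the Mgst1 sequence chr6:138140277-138140526 on the plus strand.
Gstm1: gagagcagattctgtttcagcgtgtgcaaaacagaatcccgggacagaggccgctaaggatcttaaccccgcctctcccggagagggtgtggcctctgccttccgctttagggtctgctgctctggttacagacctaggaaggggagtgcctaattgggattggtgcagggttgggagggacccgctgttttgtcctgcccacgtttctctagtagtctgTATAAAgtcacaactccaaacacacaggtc
Gstm2: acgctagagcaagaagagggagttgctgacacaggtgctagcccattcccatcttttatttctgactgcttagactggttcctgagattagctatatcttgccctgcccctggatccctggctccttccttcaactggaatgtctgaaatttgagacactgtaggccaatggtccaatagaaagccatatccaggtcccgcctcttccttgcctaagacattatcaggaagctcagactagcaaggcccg
Mgst1: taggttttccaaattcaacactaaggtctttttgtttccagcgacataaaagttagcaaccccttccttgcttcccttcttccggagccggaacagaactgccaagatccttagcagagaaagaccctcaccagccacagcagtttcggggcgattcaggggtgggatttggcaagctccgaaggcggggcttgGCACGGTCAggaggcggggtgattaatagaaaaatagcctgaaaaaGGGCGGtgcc

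Each motif was searched on both strands of windows of 300 bases, from 250 before to 50 after a start. The core of the antioxidant response element, the site bound by NRF2 with a small MAF protein, was searched as TGACNNNGC. The Mgst1 window held 1 match, on the opposite strand and 56 bases before the start, and the Gclm window held 1 on the opposite strand 134 bases before the start. Of all 32851 RefSeq windows, 12.4% held this core. The TATA box core TATAAA was found once, in the printed Gstm1 window, 30 bases before the start, and in 13.6% of all windows. The GC box core GGGCGG was found 10 bases before the Mgst1 start, 4 times in the Gclm window, and in windows of Gpx1, Gpx4 and Gss, against 35.7% of all windows. The windows of Gstm2 and Gpx8 held none of these letters, nor did a second window of Gstm1 or of Mgst1. The 8 genes with a window had 13 windows in all, and Gclc and Gsr had none.

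The 6 libraries held 17792157 to 30240350 expected counts each. Isca2, the targeted gene, had 53, 56 and 120 counts in the libraries labelled KO, against 14, 11 and 152 counts in those labelled WT. The fitted log2 fold change was 0.59 (SE 0.89, edgeR adjusted p = 0.907), and without WT replicate 3 it was 2.48 (SE 0.55, edgeR adjusted p = 0.0969). Isca2 RNA was thus not lower in the libraries labelled KO than in WT replicates 1 and 2. The region that the allele removes is not described in the labels, and every direction given here rests on those labels. WT replicate 3 stood apart from the rest: its log2 CPM values over the tested genes correlated with those of the other libraries at 0.917 to 0.931, against 0.969 to 0.984 between the other pairs. It held 2487 CPM of 14 macrophage and leukocyte markers, against 9.48, 5.92 and 11.0 CPM in the libraries labelled KO and 10.6 and 8.83 CPM in the other libraries labelled WT. Its macrophage marker Adgre1 was at 293 CPM and its leukocyte marker Ptprc at 113 CPM, and both were below 0.5 CPM in each of the other 5 libraries. All 6 libraries held oocyte RNA: 12 oocyte markers, none at 0, summed to 18985 to 20403 CPM in the libraries labelled KO and 20293 to 20718 CPM in those labelled WT. Of these 12 markers, 5 had a positive and 7 a negative log2 fold change, with and without WT replicate 3, and edgeR called 0. At an unadjusted p under 0.05 over 6 libraries, 0 were higher and 3 lower, beside 396 and 451 of 13680 tested genes. Gdf9 alone was separate upwards, and Ooep, named after its values were seen, alone downwards, beside 6.34% and 6.16% of tested genes. Ooep had 292, 208 and 141 CPM in the libraries labelled KO, against 419, 338 and 488 CPM in those labelled WT. The growth factor Gdf9 had 3529, 3746 and 3900 CPM in the libraries labelled KO and 3279, 3005 and 3034 CPM in those labelled WT, and the zona pellucida gene Zp3 reached 1267 CPM in WT replicate 3 against 253 to 351 CPM elsewhere. Zp2, Nlrp5 and Zp1 were also highest in WT replicate 3, at 2163, 1623 and 618 CPM. Dppa3 and Oosp1 were lowest there, at 5852 and 2345 CPM. With Ooep, Zp2 and Nlrp5 were the 3 lower markers at the unadjusted threshold. These 5 genes were named after their values were seen. Results are therefore given with and without WT replicate 3.

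Gstm1 and Gstm2 encode cytosolic transferases of the mu class and lie next to each other in a cluster of such genes on chromosome 3. Gstm1 (ENSMUSG00000058135, chr3:108012250-108017973, GRCm38.p6) had 86, 285 and 365 counts in the libraries labelled KO, against 0, 0 and 68 counts in those labelled WT. Scaled to library size this was 3.76, 15.9 and 12.8 CPM in the libraries labelled KO, against 0, 0 and 2.38 CPM in those labelled WT. Every library labelled KO lay above every one labelled WT, and the only WT counts were in the library that stood apart. The mean was 10.8 ± 6.32 CPM in the libraries labelled KO and 0.792 ± 1.37 CPM in those labelled WT (SD, n = 3 each). The fitted fold change over the 6 libraries was 13.4 (log2 3.74, SE 1.56), and its size depended on the method, with log2 values of 6.17 in limma-voom, 5.51 with the replicate block and 5.25 on log2(TPM + 0.1). Against WT replicates 1 and 2, which held no count, the mean of the libraries labelled KO was at least 78.4-fold higher, taking 3 counts per WT library as the floor.

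Gstm2 (ENSMUSG00000040562, chr3:107981702-107986420) was again lowest in replicate 1 of the libraries labelled KO. It had 54, 199 and 220 counts in the libraries labelled KO, against 7, 2 and 1 in those labelled WT. This corresponded to 2.36, 11.1 and 7.74 CPM in the libraries labelled KO, against 0.306, 0.097 and 0.0349 CPM in those labelled WT. The groups did not overlap, and the counts in the libraries labelled WT were close to none. The fitted fold change was 47.8 over the 6 libraries (log2 5.58, SE 0.92) and 33.5 without WT replicate 3 (log2 5.07, SE 0.82), and without WT replicate 1 its log2 value was 6.72. Of the counts of Gstm1 and Gstm2 together, Gstm1 took 61.4%, 58.9% and 62.4% in the libraries labelled KO, against 0%, 0% and 98.6% in those labelled WT. The expected counts of Gstm1 and Gstm2 were whole numbers in all 6 libraries (tolerance 0.005), but reads of close relatives in this family can still be assigned to the wrong copy.

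Mgst1 (ENSMUSG00000008540, chr6:138140527-138156755) encodes a microsomal transferase, a membrane protein of the endoplasmic reticulum and outer mitochondrial membrane that is unrelated in sequence to the cytosolic ones and also reduces lipid hydroperoxides. It had 9.22, 42.2 and 17.5 CPM in the libraries labelled KO, against 3.28, 0.485 and 5.59 CPM in those labelled WT. The groups did not overlap, but the highest library labelled WT and the lowest labelled KO were 5.59 and 9.22 CPM, closer than the libraries labelled KO were among themselves. The mean was 23.0 ± 17.2 CPM in the libraries labelled KO and 3.12 ± 2.56 CPM in those labelled WT (SD, n = 3 each). The fold change was 7.38 (log2 2.88, SE 0.88), or 12.0 without WT replicate 3 (log2 3.59, SE 0.80), and without KO replicate 2 the log2 fold change was 2.11. Within the libraries labelled KO, the highest was 4.58 times the lowest for Mgst1, 4.24 times for Gstm1 and 4.71 times for Gstm2. Replicate 1 was the lowest of the libraries labelled KO for these genes and for 8 of the 10 genes in all.

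**Figure D1:**
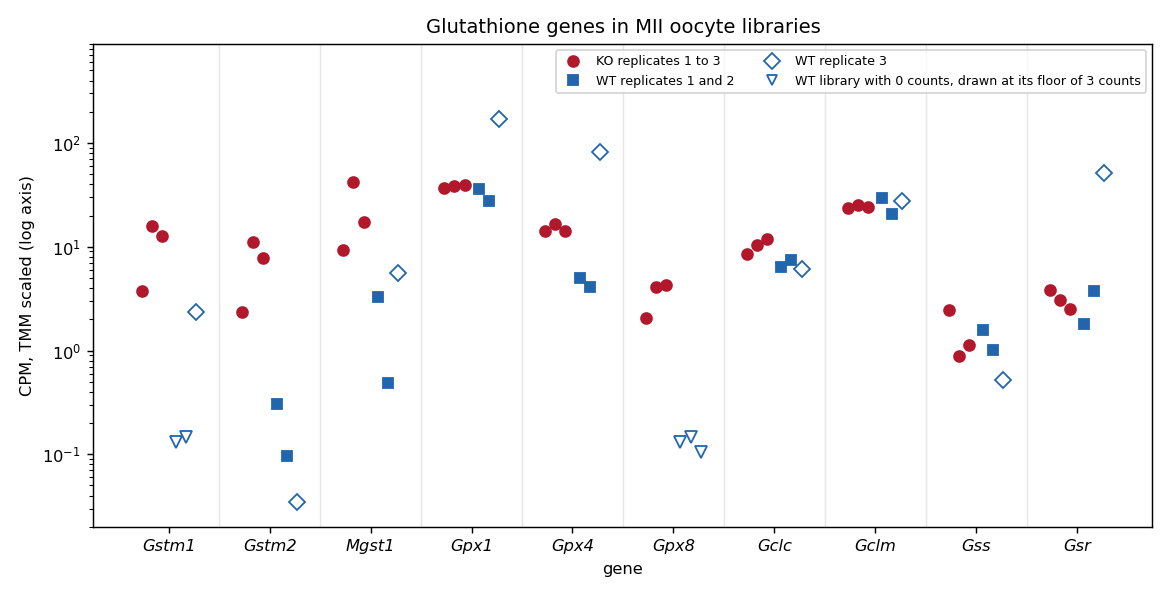
CPM of the 10 glutathione genes in each MII oocyte library on a log axis, with libraries labelled KO left of those labelled WT for each gene and libraries with 0 counts drawn as open triangles at their floor of 3 counts. Gstm1, Gstm2, Mgst1, Gpx8 and Gclc have every library labelled KO above every one labelled WT, and WT replicate 3 is far above the other libraries for Gpx1, Gpx4 and Gsr.

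Among the peroxidases, Gpx8 (ENSMUSG00000021760, chr13:113042757-113046430), a membrane protein of the endoplasmic reticulum, was counted in the libraries labelled KO only. It had 47, 73 and 122 counts there, or 2.05, 4.08 and 4.29 CPM, and 0 counts in each of the 3 libraries labelled WT. With 3 counts per WT library as the floor, the mean of the libraries labelled KO was at least 27.3-fold higher over 3 libraries labelled WT and at least 25.1-fold higher over replicates 1 and 2. Gpx8 was the 1 gene of the set with no count in WT replicate 3 as well, and its groups were separate with and without that library.

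Gpx4 (ENSMUSG00000075706, chr10:80047166-80056439), the selenoprotein that reduces lipid hydroperoxides in membranes and holds back ferroptosis, had 14.1, 16.7 and 14.1 CPM in the libraries labelled KO. In the libraries labelled WT it had 4.98, 4.12 and 82.4 CPM. The 3 libraries labelled KO lay close together, above replicates 1 and 2 and far below replicate 3 of those labelled WT. The log2 fold change was -1.01 (SE 1.05) with WT replicate 3 and 1.72 (SE 0.26; 3.28-fold) without it, and limma-voom gave 0.11 over all 6 libraries, so no direction holds across these choices. Gpx1 (ENSMUSG00000063856, chr9:108339080-108340342), the main cytosolic peroxidase and also a selenoprotein, had 37.1, 38.5 and 39.1 CPM in the libraries labelled KO, against 35.9, 27.4 and 170 CPM in those labelled WT. Its log2 fold change changed sign in the same way, -1.01 (SE 0.64) with and 0.27 (SE 0.16) without WT replicate 3. In WT replicate 3 Gpx4 stood at 18.1 times and Gpx1 at 5.36 times the mean of WT replicates 1 and 2, beside the macrophage marker sum of 2487 CPM, and the part of those cells in the values was not tested. Gpx4 counts held fractions of up to 0.36 in all 6 libraries, that is, RSEM assigned some reads to it in part.

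For the synthesis enzymes the differences were small. Gclc (ENSMUSG00000032350, chr9:77754535-77794489) had 8.61, 10.5 and 11.8 CPM in the libraries labelled KO, against 6.38, 7.42 and 6.05 CPM in those labelled WT. All 3 libraries labelled KO were above all 3 labelled WT, with a fold change of 1.57 (log2 0.65, SE 0.26), or 1.49 without WT replicate 3 (log2 0.58, SE 0.27). Gclm (ENSMUSG00000028124, chr3:122245487-122267215) had 23.4, 25.4 and 24.2 CPM in the libraries labelled KO, against 29.4, 20.8 and 27.6 CPM in those labelled WT. The groups overlapped, and the libraries labelled KO lay within the range of those labelled WT (log2 fold change -0.08, SE 0.18). As in Gpx4, its expected counts were not whole in any library, with fractions of up to 0.39. The ratio of Gclm to Gclc, in TPM, was 9.19, 7.11 and 6.84 in the libraries labelled KO and 14.3, 8.47 and 13.3 in those labelled WT, and the ranges overlapped. The difference between the subunits was not tested.

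Gss (ENSMUSG00000027610, chr2:155563181-155592810) had the lowest mean TPM of the set in the libraries labelled KO. It had 2.45, 0.894 and 1.13 CPM there, against 1.57, 1.02 and 0.524 CPM in those labelled WT, with overlapping groups and a log2 fold change of 0.53 (SE 0.66). Without KO replicate 1 this became -0.03, and on the deposited TPM scale the mean difference of log2(TPM + 1) was -0.16, so no direction can be given. The RSEM length of Gss was 1963, 1539 and 901 bases in the libraries labelled KO, against 966, 952 and 943 in those labelled WT. TPM depends on this length and CPM does not. Gsr (ENSMUSG00000031584, chr8:33653238-33698162) had 3.85, 3.07 and 2.50 CPM in the libraries labelled KO, against 1.79, 3.78 and 51.8 CPM in those labelled WT. WT replicate 3 was 18.6 times the mean of WT replicates 1 and 2 for this gene, the highest such ratio among the genes of the set with WT counts in replicates 1 and 2. The log2 fold change was -2.59 (SE 1.16) with WT replicate 3 and 0.17 (SE 0.46) without it.

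**Figure D2:**
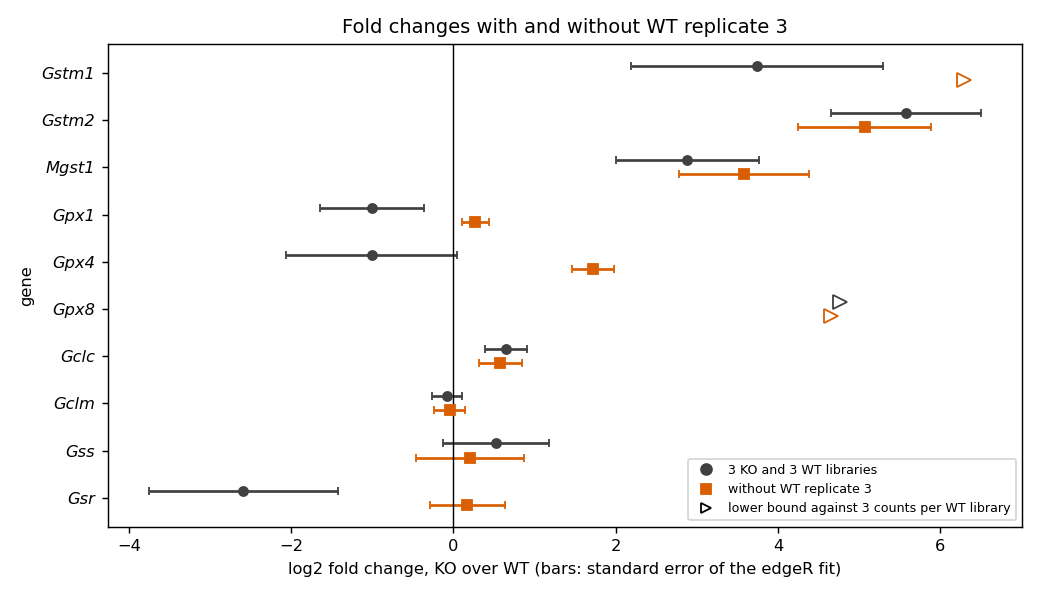
Log2 fold changes of the 10 genes, KO over WT, from the edgeR fit to 6 libraries and to 5 libraries without WT replicate 3, with the standard error of each fit as bars and lower bounds drawn for genes with no WT count. Gpx1, Gpx4 and Gsr lie on different sides of zero in the 2 fits, while Gclm stays near zero in both.

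All 10 genes passed the filter on low counts in both fits, Gstm1, Gstm2 and Gpx8 by way of the libraries labelled KO. In the edgeR quasi-likelihood test over all 6 libraries, with Benjamini-Hochberg adjustment over 13680 genes at 0.05, 0 of the 10 genes were called, beside 0% of all tested genes called higher and 0.0146% called lower in libraries labelled KO. At an unadjusted p under 0.05 the same fit had 396 genes higher and 451 lower. DESeq2 called 3 of the 10 genes, Gpx8, Gstm2 and Mgst1, all higher, beside 0.592% of tested genes higher and 0.146% lower. With limma-voom 0 were called, beside 0% higher and 0.0146% lower. Without WT replicate 3, edgeR called 4 of the 10 genes higher, Gstm1, Gstm2, Gpx4 and Gpx8, and 0 lower, beside 0.574% of 14122 tested genes called higher and 0.0779% called lower. There DESeq2 called 5, adding Mgst1, beside 3.02% higher and 0.538% lower, and with limma-voom 0 were called, beside 0.0354% higher and 0.0425% lower. All 3 libraries labelled KO lay above all 3 labelled WT for 5 of the 10 genes and for 6.34% of tested genes, and lay below them for 0 of the 10 and 6.16% of tested genes. Against WT replicates 1 and 2 alone, 7 of the 10 genes were separated upwards, with Gpx1 and Gpx4 added, beside 15.4% of tested genes, and 0 were separated downwards, beside 13.1%. Since genes were picked for being higher in the same libraries, nothing is read from these shares. The edgeR p-values given for other genes rest on the variation among these libraries, part of which may be technical.

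Levels can be compared between genes only per length, for which the deposited TPM values were used. In the libraries labelled KO the highest mean level was that of Gpx1, at 65.1 TPM (62.1 to 67.4), followed by Mgst1 at 55.1 TPM (20.8 to 103), Gpx4 at 31.8 TPM (28.6 to 35.6) and Gclm at 30.5 TPM (29.7 to 31.4). Neighbours among these 4 overlapped in range. A step below came Gstm1 at 13.8 TPM (5.48 to 19.6), Gstm2 at 10.6 TPM (3.63 to 17.1), Gpx8 at 5.35 TPM (3.24 to 6.45) and Gclc at 4.01 TPM (3.42 to 4.42), again with overlapping neighbours. Gsr at 2.01 TPM (1.51 to 2.91) and Gss at 1.57 TPM (0.87 to 2.03) were lowest and overlapped each other. In WT replicates 1 and 2 the mean level of Gpx1 was also highest at 58.7 TPM, and Gclm followed at 30.8, Gpx4 at 9.94, Mgst1 at 5.44, Gclc at 2.74, Gss at 2.32, Gsr at 1.77 and Gstm2 at 0.32 TPM, with Gstm1 and Gpx8 listed at 0. In WT replicate 3 the levels of Gpx1, Gpx4 and Gsr were 323, 196 and 29.8 TPM.

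The 3 transferases made up a small share of all transferase RNA. Summed over 27 glutathione transferase genes, the libraries labelled KO held 2495, 2433 and 2517 TPM, against 2556, 1924 and 2426 TPM in those labelled WT, and these ranges overlapped. Gstm1, Gstm2 and Mgst1 together held 29.9, 140 and 68.6 TPM of this in the libraries labelled KO, against 9.66, 1.86 and 15.7 TPM in those labelled WT. As a share of the sum this was 1.20%, 5.75% and 2.72% in the libraries labelled KO and 0.378%, 0.0967% and 0.649% in those labelled WT. Most of the transferase RNA came from Gstm5, a mu class transferase of the same chromosome 3 cluster, and Mgst3, a microsomal one. Gstm5 was singled out after its values were seen. Gstm5 had 1503, 1298 and 1416 TPM in the libraries labelled KO, against 1676, 982 and 1614 TPM in those labelled WT, with overlapping groups. Its log2 fold change in the edgeR fit was 0.10 (SE 0.18, adjusted p = 0.93). Thus Gstm5, a gene of the same class as Gstm1 and Gstm2, was 1298 TPM or more in each library labelled KO, while Gstm1 did not exceed 19.6 TPM.

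**Figure D3:**
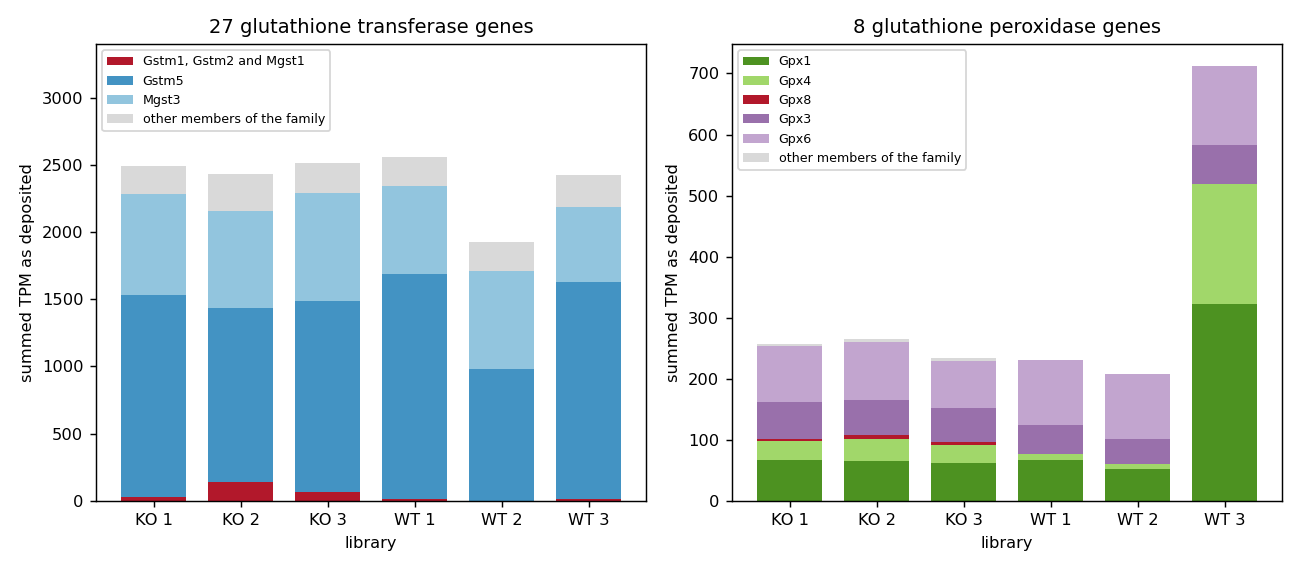
Summed TPM of the glutathione transferase genes and of the glutathione peroxidase genes in each MII oocyte library, stacked by gene, with libraries labelled KO left of those labelled WT. Gstm5 and Mgst3 fill most of the transferase bars, in which Gstm1, Gstm2 and Mgst1 are a thin layer, and WT replicate 3 has the tallest peroxidase bar through Gpx1 and Gpx4.

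The 8 peroxidase genes summed to 256, 265 and 233 TPM in the libraries labelled KO, against 231, 208 and 713 TPM in those labelled WT. WT replicate 3 was far above the other 5 libraries, which lay close together. Gpx6, a peroxidase of the olfactory epithelium in rodents, held the largest share in the libraries labelled KO, 35.9%, 36.0% and 33.1%, against 46.0%, 51.0% and 18.2% in those labelled WT. Gpx4 held 12.2%, 13.4% and 12.3% in the libraries labelled KO, against 4.61%, 4.44% and 27.6% in those labelled WT. Gpx1 held 26.3%, 24.8% and 26.6% in the libraries labelled KO, against 28.7%, 24.7% and 45.3% in those labelled WT. The libraries labelled KO were close to each other in all 3 shares, whereas WT replicate 3 differed from WT replicates 1 and 2 in each.

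Several markers of the granulosa and cumulus cells that surround the oocyte had higher values in the libraries labelled KO, while others did not. Summed over 20 such markers, the libraries labelled KO held 145, 330 and 379 CPM, against 121, 92.3 and 131 CPM in those labelled WT. The groups did not overlap, and replicate 1 of the libraries labelled KO was lowest in this sum, as it was for Gstm1, Gstm2 and Mgst1. Among the libraries labelled KO, the sum was highest in replicate 3 and the transferases in replicate 2. Of the 14 markers tested over 6 libraries, 11 had a positive and 3 a negative log2 fold change. Of these 14, 5 were separate upwards and 0 downwards, beside 6.34% and 6.16% of all tested genes. The test of edgeR called 0 of the 14. At an unadjusted p under 0.05 it had 6 higher and 0 lower, beside 396 and 451 of all 13680 tested genes. Without WT replicate 3 it called 1 higher, Inhbb (adjusted p = 0.026), and 0 lower, beside 0.574% and 0.0779% of all tested genes.

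The gap junction gene Gja1 had 37.6, 112 and 124 CPM in the libraries labelled KO, against 9.83, 0.388 and 0.105 CPM in those labelled WT. The steroid enzyme gene Hsd17b1 had 2.14, 12.5 and 20.1 CPM in the libraries labelled KO, against 1.09, 0 and 0.489 CPM in those labelled WT, and the inhibin subunit gene Inhbb 2.14, 4.86 and 13.0 CPM in the libraries labelled KO, against 0.0437, 0 and 0 CPM in those labelled WT. These genes were separate between the groups, as were Fst and Fshr. The follistatin gene Fst had 7.95, 30.2 and 24.8 CPM in the libraries labelled KO, against 1.49, 0 and 1.40 CPM in those labelled WT, and the receptor gene Fshr 1.31, 0.726 and 4.89 CPM in the libraries labelled KO, against 0.393, 0 and 0.14 CPM in those labelled WT. In contrast the aromatase gene Cyp19a1 had 60.2, 58.3 and 51.9 CPM in the libraries labelled KO, against 63.5, 64.5 and 51.9 CPM in those labelled WT, and Nr5a2 had 8.65, 12.2 and 11.3 CPM in the libraries labelled KO, against 11.1, 12.2 and 7.86 CPM in those labelled WT. Both overlapped between the groups over 6 libraries. Without WT replicate 3, 6 of the 14 tested markers were separate upwards and 1 downwards, Cyp19a1, beside 15.4% and 13.1% of all tested genes. The groups also overlapped for the inhibin subunit gene Inha, at 0.218, 4.36 and 36.4 CPM in the libraries labelled KO, against 5.68, 0.145 and 0.28 CPM in those labelled WT. They overlapped too for Kitl and Has2. Has2 had 0.481, 0.894 and 3.45 CPM in the libraries labelled KO, against 1.44, 0 and 0.489 CPM in those labelled WT. Tnfaip6 had 0, 6.42 and 0 CPM in the libraries labelled KO, against 0, 0 and 3.70 CPM in those labelled WT. Ptx3 was at most 0.0559 CPM in the libraries labelled KO and reached 3.32 CPM in WT replicate 3. The log2 fold changes of Star and Ptgs2 were negative over 6 libraries, -0.73 (SE 1.23) and -3.32 (SE 1.89), and 0.07 and 0.92 without WT replicate 3. Amh, Foxl2, Cyp11a1 and Lhcgr were at 0.246 CPM or less in every library, and 5, 3 and 5 of the 20 markers were at 0 in the libraries labelled KO, against 7, 11 and 4 in those labelled WT. Among the libraries labelled KO, Fst, Hsd3b1, Kitl, Nr5a2, Ptgs2 and Tnfaip6 were highest in replicate 2. Gja1, Hsd17b1, Inhbb, Inha, Inhba, Fshr, Has2 and Star were highest in replicate 3, and Cyp19a1 in replicate 1. Fst, Fshr, Cyp19a1, Nr5a2, Inha, Hsd3b1, Inhba, Star, Ptgs2, Has2, Kitl, Tnfaip6 and Ptx3 were named after their values were seen. The part of granulosa or cumulus RNA in the transferase and Gpx8 values was not tested, and in bulk libraries the number of cells of a type and the RNA per cell cannot be told apart.

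**Figure D4:**
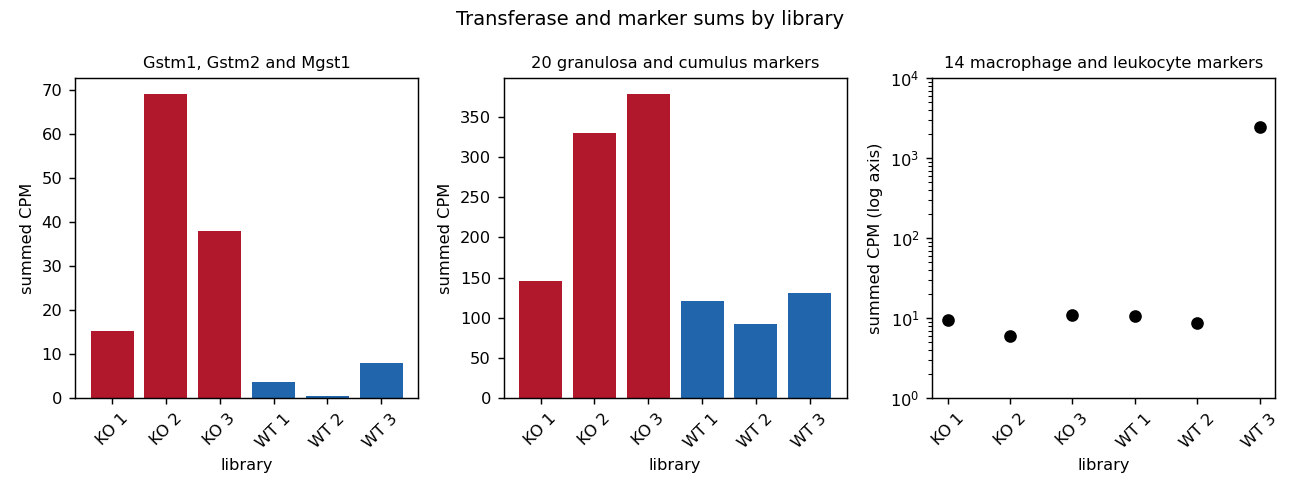
Summed CPM per library of Gstm1, Gstm2 and Mgst1, of 20 granulosa and cumulus markers and, on a log axis, of 14 macrophage and leukocyte markers, with libraries labelled KO left of those labelled WT. The first 2 sums are higher in each library labelled KO than in each labelled WT, and the third is 2487 CPM in WT replicate 3 and at most 11.0 CPM elsewhere.

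A further 84 genes of the pathway were read from 7 lists of glutathione-related functions. Of the 58 that passed the filter, edgeR called 0 in either direction over the 6 libraries. At an unadjusted p under 0.05 it had 2 higher and 2 lower, beside 396 and 451 of all 13680 tested genes. DESeq2 called 1 of the 58, Gpx7, higher, beside 0.592% of all tested genes higher and 0.146% lower. The median log2 fold change of these genes was -0.06, beside -0.04 over all tested genes, and 25 were positive and 33 negative. Without WT replicate 3, edgeR called 2 of 63 higher and 0 lower, beside 0.574% and 0.0779% of all tested genes. The median there was 0.17, beside 0.01 over all tested genes. Setting the 4 genes with no count in WT replicates 1 and 2 (Gstm7, Mgst2, Chac1 and Nnt) at their lower bound left this median at 0.17.

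Of the other transferases, 11 of 24 were tested over 6 libraries and 0 were called, with a median log2 fold change of -0.02. Leaving out WT replicate 3, 15 were tested and 0 called, with a median of 0.27 and 12 positive. Of these 15, 4 were separate upwards and 2 downwards, beside 15.4% and 13.1% of all tested genes. The upward ones were Gstm6, Gstm7, Gstt2 and Mgst2 and the downward ones Gstp2 and Gstcd, all named after their values were seen. Mgst3 had 510, 487 and 586 CPM in the libraries labelled KO, against 429, 506 and 341 CPM in those labelled WT (log2 0.32, SE 0.17, edgeR adjusted p = 0.767). Gstz1, which acts in tyrosine breakdown, had 27.8, 32.6 and 32.8 CPM in the libraries labelled KO, against 26.0, 27.9 and 20.5 CPM in those labelled WT (log2 0.33, SE 0.18, edgeR adjusted p = 0.768). The groups overlapped for both genes, and neither passed the test. Low counts separated the groups in Mgst2 and Gstm7, named here after their values were seen and tested only without WT replicate 3. Mgst2, a microsomal transferase, had 4, 41 and 42 counts in the libraries labelled KO and 0 in each of those labelled WT. Gstm7, of the mu class, had 13, 44 and 11 counts in the libraries labelled KO, against 0, 0 and 11 in those labelled WT, which left its lowest library labelled KO barely above WT replicate 3 after scaling, at 0.387 against 0.384 CPM. Neither passed the edgeR test without WT replicate 3 (adjusted p = 0.152 each), and DESeq2 called both.

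Of the other peroxidases, 3 of 5 were tested, with a median log2 fold change of 0.28 over 6 libraries and 0.41 without WT replicate 3. Gpx7, a small secretory pathway peroxidase closely related to Gpx8, had 2.01, 4.25 and 3.59 CPM in the libraries labelled KO, against 0.0437, 0.0485 and 0.524 CPM in those labelled WT. It was not called over 6 libraries (log2 3.92, SE 0.97, edgeR adjusted p = 0.623) and was higher without WT replicate 3 (edgeR adjusted p = 0.0186). In counts it had 224 over the libraries labelled KO and 2 over WT replicates 1 and 2, a ratio of 70.4 after scaling, with an exact 95% interval of 19.3 to 585 that covers counting error only. Per length, Gpx7 had 2.43, 5.13 and 4.04 TPM in the libraries labelled KO, against 0.05, 0.06 and 0.69 TPM in those labelled WT, and Gpx8 had 3.24, 6.45 and 6.35 TPM in the libraries labelled KO and was listed at 0 in those labelled WT. Both were thus low in the libraries labelled KO and at or near 0 in WT replicates 1 and 2. Gpx6 had 75.2, 80.7 and 68.3 CPM in the libraries labelled KO, against 83.7, 88.0 and 93.6 CPM in those labelled WT, separate but close, and it did not pass the test (log2 -0.24, SE 0.12, edgeR adjusted p = 0.766).

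Of the genes of glutathione turnover and cysteine supply, 13 of 20 were tested and 0 were called (median log2 fold change 0.15, or 0.14 without WT replicate 3). Ggct, which releases pyroglutamate from glutamyl dipeptides, had 482, 499 and 559 CPM in the libraries labelled KO, against 394, 460 and 260 CPM in those labelled WT (log2 0.47, SE 0.21, edgeR adjusted p = 0.766), without overlap. Abcc1, an exporter of glutathione conjugates, had 7.04, 5.75 and 4.68 CPM in the libraries labelled KO, against 6.34, 7.13 and 40.7 CPM in those labelled WT, overlapping in WT replicates 1 and 2 (log2 -1.62, SE 0.72, edgeR adjusted p = 0.766). The log2 fold change of Abcc1 was -0.21 (SE 0.31) without WT replicate 3.

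All 8 genes of glutathione-dependent thiol and aldehyde enzymes were tested and 0 were called. Their median log2 fold change was 0.01 over 6 libraries, with 4 positive, and 0.87 without WT replicate 3, with 6 positive. Without that library 5 were separate upwards, beside 15.4% of all tested genes. The largest of these without WT replicate 3 were log2 fold changes of 3.11 (SE 1.11) for the glutaredoxin Glrx2 and 2.92 (SE 0.72) for the glyoxalase Hagh. These 2 genes were picked out once their values were known, as was the esterase Esd, which had 7.73, 11.8 and 9.21 CPM in the libraries labelled KO, against 3.45, 1.31 and 29.4 CPM in those labelled WT. None passed the edgeR test without WT replicate 3 (adjusted p = 0.297 for Glrx2, 0.127 for Hagh and 0.0945 for Esd), and DESeq2 called Hagh and Esd there. The glutaredoxin Glrx5, which like ISCA2 acts in mitochondrial iron-sulfur cluster assembly, had 26.2, 14.7 and 20.7 CPM in the libraries labelled KO, against 24.6, 18.4 and 41.8 CPM in those labelled WT. The glyoxalase Glo1 had 4.28, 12.6 and 11.3 CPM in the libraries labelled KO, against 3.98, 3.69 and 9.96 CPM in those labelled WT. The groups overlapped for both genes, and neither passed the test (edgeR adjusted p = 0.807 for Glrx5 and 0.81 for Glo1).

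Of the genes of NADPH supply, 8 of 9 were tested over 6 libraries, 0 were called and the median log2 fold change was -0.57, with 1 positive and 7 negative. Idh2, the mitochondrial isocitrate dehydrogenase that makes NADPH, had 1.97, 4.47 and 3.45 CPM in the libraries labelled KO, against 0.0437, 0.0485 and 1.54 CPM in those labelled WT. Without WT replicate 3 it was higher in the libraries labelled KO (edgeR adjusted p = 0.0186), with 223 counts over the libraries labelled KO, against 2 over WT replicates 1 and 2, and a scaled ratio of 70.1 (exact 95% interval 19.2 to 582). Tkt, a transketolase of the pentose phosphate pathway, had 0.874, 2.35 and 1.65 CPM in the libraries labelled KO, against 2.01, 0.824 and 23.1 CPM in those labelled WT. Without WT replicate 3 the list's median log2 fold change was 0.08, with 6 of 9 tested genes positive.

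Of the NRF2 pathway genes, 8 of 11 were tested and 0 were called, with 1 positive, 7 negative and a median log2 fold change of -0.51. Without WT replicate 3 the median was -0.10, with 3 positive and 5 negative. The 1 positive gene over 6 libraries was Nqo1 (log2 0.20, SE 0.25, edgeR adjusted p = 0.877). Hmox1 and Srxn1 were not tested, and reached 33.6 and 9.05 CPM in WT replicate 3. These 3 genes were named after their values were seen. Txnrd1, a thioredoxin reductase and NRF2 target, had 90.9, 86.4 and 88.2 CPM in the libraries labelled KO, against 107, 101 and 117 CPM in those labelled WT, without overlap (log2 -0.29, SE 0.11, edgeR adjusted p = 0.766). Mafk, a small MAF partner of NRF2, had 0.612, 0.447 and 0.492 CPM in the libraries labelled KO, against 0.874, 0.63 and 7.76 CPM in those labelled WT. All 7 genes of selenoprotein synthesis were tested and 0 were called (median log2 fold change -0.04 with and without WT replicate 3). Sephs1 had 7.65, 8.55 and 5.98 CPM in the libraries labelled KO, against 3.93, 4.51 and 5.35 CPM in those labelled WT. Sepsecs, which forms selenocysteine on its transfer RNA, had 102, 112 and 102 CPM in the libraries labelled KO, against 95.6, 81.8 and 85.5 CPM in those labelled WT. Both were separate between the groups and neither passed the test (edgeR adjusted p = 0.766 each).

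**Figure D5:**
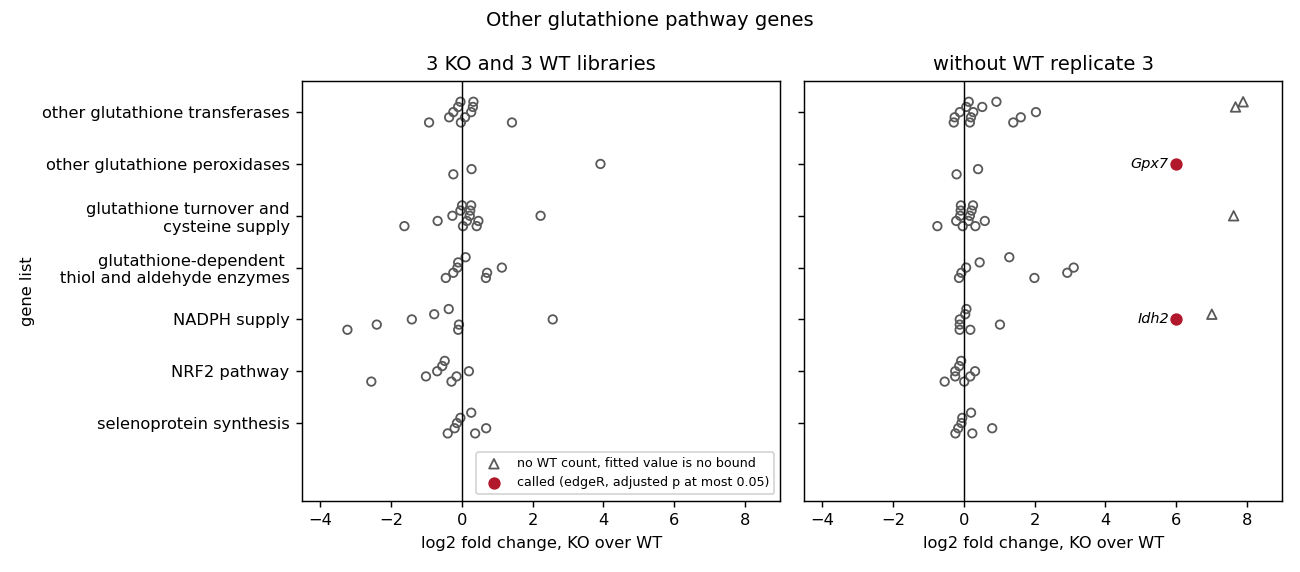
Log2 fold changes, KO over WT, of the tested genes of the 7 pathway lists in the edgeR fit to 6 libraries and to 5 libraries without WT replicate 3, with 1 point per gene. Filled points are the called genes, and triangles are genes with no count in WT replicates 1 and 2, whose fitted position is no bound. NADPH supply and NRF2 pathway genes have medians of -0.57 and -0.51 with WT replicate 3, and 0.08 and -0.10 without it.

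The genes whose pattern over the 6 libraries was most like that of each transferase were taken by Pearson's r of log2(CPM + 1) among 8788 genes of mean log2 CPM of at least 2. For Gstm1 these were Cbx3 (r = 0.988), Gm45598 (0.987) and Serpinb6a (0.979), for Gstm2 they were mt-Co3 (0.994), Hpgd (0.994) and Nrep (0.985), and for Mgst1 they were Fbxl6 (0.999), Cnpy2 (0.988) and Egfl6 (0.978). The lists had no gene in common. Hpgd, a prostaglandin dehydrogenase, had 3.89, 18.9 and 13.7 CPM in the libraries labelled KO, against 0.481, 0.436 and 0.734 CPM in those labelled WT. Serpinb6a, a protease inhibitor, had 4.85, 21.7 and 13.7 CPM in the libraries labelled KO, against 1.97, 1.31 and 4.09 CPM in those labelled WT. By contrast Fbxl6 had 90.1, 112 and 97.9 CPM in the libraries labelled KO, against 79.5, 68.1 and 85.6 CPM in those labelled WT, the same order of libraries as Mgst1 over a far smaller range. With 6 points that share their libraries and their split into groups, such correlations describe these samples only.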

How the data were processed

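RNA-seq of 6 MII oocyte libraries, 3 labelled KO and 3 labelled WT by their titles, was used. Expected counts and TPM per gene are as deposited by the authors, per the file headers of RSEM output. Trim Galore 0.4.5, STAR 2.6.1c, RSEM 1.3.1, DESeq2 1.42.1 and the mm10/GRCm38 build are named in the submitters' processing notes. The annotation release and strand setting are not given in the sources used here, and without a known strand setting a gene cannot be told from its antisense partner. RSEM divides reads that match several genes among them. Symbols were found for 55144 of 55471 gene IDs, and coordinates and promoter windows came from RefSeq tables of GRCm38.p6.

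Expected counts were rounded to whole numbers and tested with edgeR 4.0.16 in R 4.3.3 (filterByExpr, TMM factors, quasi-likelihood test, Benjamini-Hochberg adjustment over all tested genes, threshold 0.05), with genotype as the only term. CPM used TMM-scaled library sizes. Standard errors (SE) of log2 fold changes were taken as the fold change over the root of F. The code was tested on simulated counts. A gene with no WT count was set against a floor of 3 counts per WT library. Intervals and floors cover counting error only. No pair of libraries was a duplicate, since they shared equal counts for 87 to 235 of 13680 tested genes.

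The 10 genes, the pathway and marker lists, the tests and the use of WT replicate 3 as a library to leave out were all chosen with earlier results of these data known. From each pathway list the 2 tested genes with the smallest p over 6 libraries and every called gene were named, beside Isca2 and 7 marker genes. Alternatives were RLE factors, library totals, DESeq2 1.42.0, limma-voom (limma 3.58.1), a block for the replicate number, other filters on counts, log2 of TPM plus 1 or 0.1, and leaving out each library. DESeq2 and limma-voom without WT replicate 3 were added after the data were seen. Sperm and blastocyst samples were not analysed here.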

Additional observations from a re-analysis of the deposited data

How the results depend on the processing

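Over all tested genes, edgeR called 2 with 6 libraries (0 higher and 2 lower), and DESeq2 called 101 (81 higher and 20 lower). Leaving out each library in turn gave 1 to 92 genes, the lowest without KO replicate 1 and the highest without WT replicate 3 (81 higher and 11 lower). Without WT replicate 3, DESeq2 called 502 genes (426 higher and 76 lower) and limma-voom 11. Of the 58 other pathway genes tested over 6 libraries, 0 were called by edgeR and 1 by DESeq2 (Gpx7), beside 0.592% of all tested genes called higher by DESeq2. Leaving out each library, edgeR called 0 to 2, with Gpx7 and Idh2 called without WT replicate 3, beside 0.574% of all tested genes called higher there. Without WT replicate 3, DESeq2 called 7 of 63 (Chac1, Esd, Gpx7, Gstm7, Hagh, Idh2 and Mgst2), all higher, beside 3.02%, and limma-voom called 0. Of the 10 glutathione genes, DESeq2 called 3 over 6 libraries, beside 0.592% of all tested genes called higher, and 5 without WT replicate 3, beside 3.02%. With limma-voom 0 were called in either. The edgeR test called 4 without WT replicate 3, beside 0.574%, and 0 without any other library. Since genes of this set were picked for being higher in the same libraries, nothing is read from these counts. The cause of the differences between settings was not tested.

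Over 170 alternative fold changes of the 10 genes, 143 moved by less than the spread between replicates and 17 had the other sign. Gpx1 and Gsr had the other sign only in the 3 fits without WT replicate 3. Gpx4 had it in those fits, with limma-voom, with the replicate block and on the TPM scale. For Gss it turned without KO replicate 1 and on the TPM scale, and for Gclm without WT replicate 1, where it was 0.03. Gstm1 had log2 values of 6.17 with limma-voom, 5.51 with the replicate block and 5.25 on log2(TPM + 0.1), against 3.74 as reported. On log2(TPM + 1), which understates changes of low genes, Gstm2 was 3.04 and Gpx8 was 2.62. RLE factors moved the median of all genes by 0.01 and library totals by -0.07. Deviations from the group means correlated between same-numbered libraries labelled KO and WT at 0.10, -0.11 and 0.00. WT replicate 3 weighs on every deviation in its group, so these values cannot decide whether the replicate numbers pair samples. The labels do not say whether they do. With the replicate block edgeR called 2 of all tested genes and 0 of the pathway genes. At this depth a gene with no count may still be present at up to 3 counts per library.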
